A study of Mus musculus with 9 samples.

Results

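Open chromatin was compared between the control vectors of a mouse dendritic cell study, LMP8, the control for the knockdown vector, and mi8, the control for the overexpression vector. The comparison takes every peak of both lists on chromosomes 1 to 19 and X, with equal intervals collapsed and peaks counted as shared from 1 bp of overlap. Peaks of both lists merged into 176857 regions, out of 194733 regions when the lists of the Pcgf6 vectors are merged in too. The cells were dendritic cells grown from C57Bl/6 bone marrow for 9 days in 20 ng/mL GM-CSF, infected with retrovirus on day 2, and sorted for the human CD8 reporter carried by the vector together with CD11c. The full series has LMP8, mi8, the hairpin vector HP109 against Pcgf6, and the Pcgf6 overexpression vector OE, with 2 libraries each, and 1 input library. Neither control changes Pcgf6 by design, and both carry the infection, the reporter and the sort, so uninfected cells do not enter the comparison.

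The authors deposited 1 list per vector for both libraries together. There is therefore no replicate spread, no test between the cultures was made, and any interval beside a value covers counting error alone. Every list was called against the same single input, which per the labels came with the mi8 vector. Bulk libraries cannot tell fewer cells of a type with an open site from the same cells with a less open site. Whether vector, culture, library and depth each take part in a difference between LMP8 and mi8 cannot be told apart here.

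In ATAC-seq a transposase inserts sequencing adaptors where DNA is not covered by nucleosomes, so peaks mark accessible DNA, promoters and enhancers among it. A peak alone does not show that a site is active. GM-CSF signals through its receptor, JAK2 and STAT5, and drives marrow progenitors towards myeloid cells with features of dendritic cells and macrophages. PU.1, an ETS-family factor, opens myeloid enhancers together with C/EBP, AP-1 and IRF factors, and IRF4, IRF8 and BATF3 direct dendritic cell subtypes.

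The promoter sequences on which the results turn are given first, from RefSeq on GRCm38.p6, from 250 bases before to 50 bases after a start site. The search was made on both strands for PU.1 (GAGGAAG), other ETS factors (CCGGAAG), AP-1 (TGANTCA), C/EBP (TTGCNNAA), IRF (GAAANNGAA), NF-Y (CCAAT), the GC box of Sp1-type factors (GGGCGG), the cyclic AMP response element (TGACGTCA), NRF1 (GCGCATGC) and the TATA box (TATAAA). Capitals mark every match, the PU.1 and ETS letters share GGAAG, and neighbouring matches can run together. A match describes the letters and does not show that a factor binds. The start region of Pgk1 (chrX:106186850-106187149, plus strand) held the strongest peak of the LMP8 list and departs from the pattern of every other strong region. Desi2 (chr1:178187167-178187466, plus strand) and Creb3l2 (chr6:37442099-37442398, minus strand) had the next strongest shared promoter peaks, and Itgax (chr7:128129300-128129599, plus strand) encodes CD11c, the marker used in the sort, and was added after its values were seen.
Pgk1: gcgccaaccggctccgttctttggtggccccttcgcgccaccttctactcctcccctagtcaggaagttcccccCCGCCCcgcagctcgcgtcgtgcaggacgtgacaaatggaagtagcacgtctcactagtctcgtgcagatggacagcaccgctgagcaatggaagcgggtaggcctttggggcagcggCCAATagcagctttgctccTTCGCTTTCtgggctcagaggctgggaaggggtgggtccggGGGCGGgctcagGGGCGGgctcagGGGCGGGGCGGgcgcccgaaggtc
Desi2: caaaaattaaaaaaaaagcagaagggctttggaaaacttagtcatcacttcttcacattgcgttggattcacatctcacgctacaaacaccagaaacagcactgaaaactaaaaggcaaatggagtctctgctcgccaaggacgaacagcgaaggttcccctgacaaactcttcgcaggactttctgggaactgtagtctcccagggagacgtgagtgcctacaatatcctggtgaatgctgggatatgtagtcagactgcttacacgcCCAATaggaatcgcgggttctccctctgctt
Creb3l2: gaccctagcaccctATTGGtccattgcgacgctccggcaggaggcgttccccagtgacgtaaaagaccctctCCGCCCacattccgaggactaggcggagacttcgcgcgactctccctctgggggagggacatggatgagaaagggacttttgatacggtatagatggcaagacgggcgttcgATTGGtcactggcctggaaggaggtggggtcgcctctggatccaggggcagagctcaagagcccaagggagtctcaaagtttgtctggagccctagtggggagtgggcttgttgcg
Itgax: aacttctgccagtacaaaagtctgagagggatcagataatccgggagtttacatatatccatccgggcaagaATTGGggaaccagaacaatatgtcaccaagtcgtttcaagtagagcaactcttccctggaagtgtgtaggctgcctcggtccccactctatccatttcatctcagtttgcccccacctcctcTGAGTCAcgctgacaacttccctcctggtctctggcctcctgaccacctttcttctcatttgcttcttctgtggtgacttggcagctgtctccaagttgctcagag

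The next set shows promoters covered by a peak in 1 control alone. Macroh2a2 (chr10:61783815-61784114, minus strand) was covered in LMP8, and Cd200r2 (chr16:44866847-44867146, plus strand) and Tenm4 (chr7:96170994-96171293, plus strand) were covered in mi8.
Macroh2a2: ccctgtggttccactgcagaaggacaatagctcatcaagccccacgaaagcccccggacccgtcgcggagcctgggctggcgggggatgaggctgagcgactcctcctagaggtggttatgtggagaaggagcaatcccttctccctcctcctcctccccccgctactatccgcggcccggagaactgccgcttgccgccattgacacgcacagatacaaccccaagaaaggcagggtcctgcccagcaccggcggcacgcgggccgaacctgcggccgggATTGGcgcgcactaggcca
Cd200r2: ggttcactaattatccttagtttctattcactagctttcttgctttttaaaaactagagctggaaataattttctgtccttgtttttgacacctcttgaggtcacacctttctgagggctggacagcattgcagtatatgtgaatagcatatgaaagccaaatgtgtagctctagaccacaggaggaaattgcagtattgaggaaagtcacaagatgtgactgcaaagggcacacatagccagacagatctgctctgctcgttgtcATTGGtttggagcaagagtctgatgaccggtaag
Tenm4: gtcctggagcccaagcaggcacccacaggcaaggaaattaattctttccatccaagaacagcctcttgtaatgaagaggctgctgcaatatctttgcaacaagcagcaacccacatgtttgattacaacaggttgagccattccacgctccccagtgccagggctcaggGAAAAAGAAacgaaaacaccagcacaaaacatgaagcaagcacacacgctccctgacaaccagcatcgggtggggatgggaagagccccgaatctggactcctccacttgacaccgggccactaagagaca
The Pgk1 sequence held several GC box matches, with matches for NF-Y and IRF, and had 66.7% G and C with 24 CpG. Macroh2a2 was close to it in composition, at 65.7% and 23 CpG, while Cd200r2 had 42.0% and 2 CpG.

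The control cultures shared most of their open chromatin. Of the merged regions, 125935 (71.2%) had a peak in both lists, 8407 (4.75%) in LMP8 alone and 42515 (24.0%) in mi8 alone. Counted by peaks, 8407 of 140716 LMP8 peaks were absent from mi8 (5.97%, exact Clopper-Pearson 95% interval 5.85 to 6.10), and 42515 of 170946 mi8 peaks were absent from LMP8 (24.9%, 24.7 to 25.1). With equal numbers of peaks, the strongest of each list, the shares were 11.8% for LMP8 and 14.99% for mi8. The shares over the full lists are the background against which the gene groups below are read. The Jaccard index, shared over covered base pairs, was 0.688. The lists covered 45.0 Mb in LMP8 and 55.9 Mb in mi8, with median peak widths of 230 and 236 bp. On single chromosomes 5.44% to 6.66% of LMP8 peaks and 22.3% to 26.8% of mi8 peaks were absent from the other control. The lowest mi8 share was on chromosome 19 and the highest on X, so the absent peaks were spread over the genome.

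The background level differed between the lists and did not go with their length. Read numbers were not at hand, so the lowest background of a list stands in for its depth. The lowest background was 1.42 reads in LMP8, 1.95 in mi8, 1.35 in HP109 and 2.00 in OE, while the lists held 140716, 170946, 170077 and 111488 peaks in the same order. The peak score is −log10 q, the caller's adjusted significance over the input background, and fold is the pileup of reads at the summit over that background. Both are the authors' own values and serve here to describe and rank peaks within a list. The whole-number pileup could be recovered from them for 100% of peaks, within 0.001 of the printed −log10 p. The ratio of the lowest backgrounds was 1.37 for mi8 over LMP8. Over the shared regions the median summit pileup was 20 reads in LMP8 and 32 in mi8, and the median of the ratio within a region was 1.54 for mi8 over LMP8. Shared regions differed by more than the backgrounds did. Scaling mi8 pileups and backgrounds to LMP8 kept 169250 of the mi8 peaks (99.0%) and left 24.3% of them absent from LMP8.

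Peaks absent from the other control were weak. Below a −log10 q of 3, 30.4% of LMP8 peaks were absent from mi8 and 77.8% of mi8 peaks were absent from LMP8. From 5 to 10 the shares were 5.65% and 45.9%, and from 10 to 20 they were 0.162% of LMP8 peaks (52 of 32033) and 11.9% of mi8 peaks (4311 of 36179). From 20 to 40, 0 of 27116 LMP8 peaks and 130 of 29909 mi8 peaks (0.435%) were absent. At 40 or more, 0 of 17506 LMP8 peaks and 0 of 38167 mi8 peaks were absent, and the exact upper bounds are 0.0211% and 0.00966%. The highest −log10 q of an absent peak was 17.0 in LMP8 and 39.4 in mi8. Among peaks from 10 to 20, 7.58% of mi8 peaks at gene ends and 12.3% of those elsewhere were absent from LMP8.

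**Figure D1:**
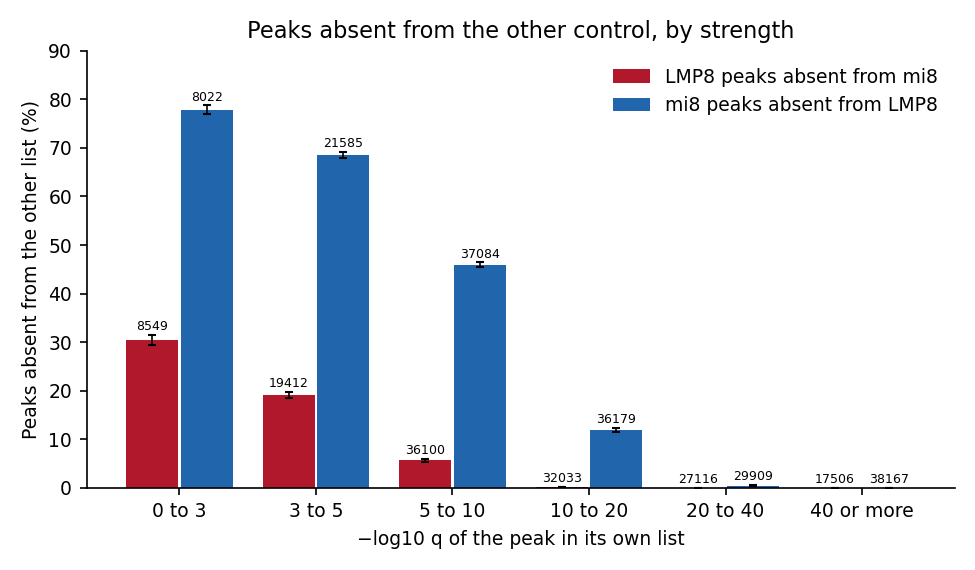
Share of peaks absent from the other control (percent, vertical axis) in bins of −log10 q in the own list (horizontal axis), for LMP8 (red) and mi8 (blue). Error bars are exact 95% binomial intervals and the numbers give the peaks per bin. The mi8 bars are higher in each bin up to 20 to 40, and no peak of either list at 40 or more was absent from the other.

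Absent peaks were narrow, at a median of 118 bp in LMP8 and 137 bp in mi8, against 242 and 290 bp for peaks present in both. A peak of the other control lay within 250 bp of 28.3% of the absent LMP8 peaks and of 14.2% of the absent mi8 peaks. Gene ends, here either end of a protein-coding gene with 1000 bp on each side, took 12.6% of regions in LMP8 alone, 8.34% of those in mi8 alone and 15.1% of shared regions. The Pcgf6 vectors held many of the same sites. Regions in LMP8 alone had a peak in HP109 in 43.9% and in OE in 10.7%, regions in mi8 alone in 50.9% and 17.4%, and shared regions in 95.5% and 74.3%. Of the mi8 peaks from 20 to 40 that LMP8 lacked, 95.4% had a peak in HP109 and 66.2% in OE. Over all lists, 4474 regions were in LMP8 and no other list, 19266 in mi8 and no other, 4870 in both controls alone, and 91650 in all 4.

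The strongest shared gene-end regions are ranked by the lower of the −log10 q values in the controls. Pgk1, the glycolytic enzyme phosphoglycerate kinase, led with 132 in LMP8 and 113 in mi8. Desi2, a protease of the desumoylase family, had 111 in LMP8 and 156 in mi8. Creb3l2, a membrane-bound transcription factor of the secretory pathway, had 116 in LMP8 and 107 in mi8. Eif2ak3, the stress kinase PERK of the endoplasmic reticulum, had 103 in LMP8 and 138 in mi8. The other genes among the 10 highest regions were Abhd17b, Arid4b, Ppp2r1a, Snd1, Ripk2 and Cnot3, with 98.5 to 100 in LMP8 and 121 to 173 in mi8. Ripk2, the kinase that carries signals from NOD receptors for bacterial cell walls, had the highest mi8 value of all, 173, and 98.5 in LMP8. The Arid4b region also holds an end of Ggps1. Away from gene ends, and chosen after the values were seen, the strongest shared regions lay 4.01 kb from Snx5 (96.4 in LMP8, 120 in mi8) and inside Stag1, a cohesin subunit (95.2 in LMP8, 128 in mi8).

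Long genes carried the largest numbers of shared regions. Pde4d, a cyclic AMP phosphodiesterase whose span is 1302 kb, held 111, and Lpp, an adhesion protein, held 104. Arhgap26 held 89, Foxp1, a forkhead repressor of blood cells, held 82, and Etv6, an ETS-family repressor, held 75. Asap1, Sgms1, Med12l, Arid1b and Creb5 held 69 to 74 each. Per length, in spans of 10 kb or more and chosen after the values were seen, the densest were Atf3, a stress-induced AP-1 family factor, with 9.20 shared regions per 10 kb, Plek, a platelet and leukocyte signalling protein, with 9.06, and Mmp12, the macrophage elastase, with 8.71.

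The widest shared region differed from the others in its background. It lay on chr1:24611587-24616216, 23.7 kb from Col19a1, and is known as a nuclear copy of mitochondrial DNA. Its pileup was 75 reads in LMP8 and 123 in mi8, among the highest of all, while its fold was 3.26 in LMP8 and 3.89 in mi8, against list medians of 7.02 and 7.22. A low fold at a high pileup means that the input was high there too. Wide regions with high fold, also chosen after the values were seen, included one at St3gal1, a sialyltransferase (4393 bp, fold 23.0 in LMP8 and 22.2 in mi8), one at Bhlhe40, a factor that controls cytokine output of myeloid cells (3875 bp, 27.7 and 33.6), and one at Jun, an AP-1 subunit (3776 bp, 14.3 and 27.6).

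Summit pileups over the shared regions followed each other in both lists. Spearman's rho was 0.913 over 125935 regions and 0.895 over the 68283 regions with 30 reads or more in either list. These are descriptions, since all regions share the same libraries and the same input. In the 12619 regions with the highest mean rank the median pileup was 53 reads in LMP8 and 84 in mi8, and in the 12107 regions with the lowest 10 in LMP8 and 13 in mi8. The ratio of these medians, mi8 over LMP8, was 1.58 in the highest regions and 1.30 in the lowest. Of the 1000 regions with the highest pileup in LMP8, 520 were among the 1000 highest in mi8.

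Pgk1 was the exception among strong regions. The LMP8 pileup reached at least that of mi8 in 6771 shared regions (5.38%), nearly all of them weak. Of the 2777 shared regions with 60 reads or more in LMP8, the Pgk1 start region was the single one in that state, an observation made after the values were seen. Its summit pileup was 98 reads in LMP8 (exact Poisson 95% interval 79.6 to 119) and 92 in mi8 (74.2 to 113), with 121 in HP109 and 86 in OE. Among the same 125935 shared regions it ranked 1 in LMP8, 2797 in mi8, 18 in HP109 and 3547 in OE. LMP8 and HP109, both of the knockdown arm, had it near the top of their ranks, while mi8 and OE had it far lower.

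**Figure D2:**
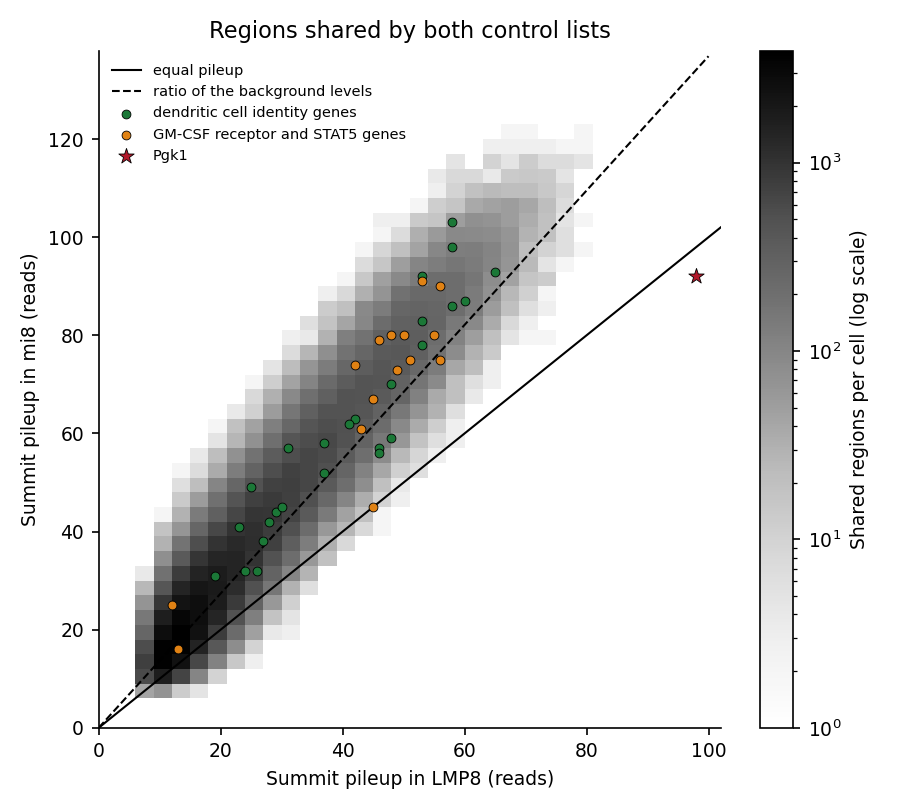
Summit pileup in LMP8 (reads, horizontal axis) against that in mi8 (reads, vertical axis) for 125935 shared regions, as a grid shaded by the number of regions on a log scale, where a cell with 1 region is nearly white. The solid line marks equal pileup and the dashed line the background ratio of 1.37; green and orange points are the gene-end regions of dendritic cell identity and of GM-CSF receptor and STAT5 genes. Pgk1 (star, 98 and 92 reads) lies below the solid line, far from the cloud.

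The other peaks of Pgk1 had fewer reads in LMP8 than in mi8. The start peak had its summit at −94 bp from the start site in LMP8, −80 bp in mi8, −135 bp in HP109 and −208 bp in OE. The peak near 0.9 kb inside the gene had 31 reads in LMP8 and 42 in mi8, and the peak near 2.5 kb had 31 in LMP8 and 63 in mi8. The start peak was the exception within the gene. Pgk1 promoter sequence is in wide use as an internal promoter of expression vectors. The sequences of these vectors were not used here, and the part of vector copies in this peak was not tested. No list had a peak at Cd8a or Cd8b1, the mouse genes whose human counterpart gave the reporter, or at Mir30a, whose hairpin backbone is used in knockdown vectors.

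**Figure D3:**
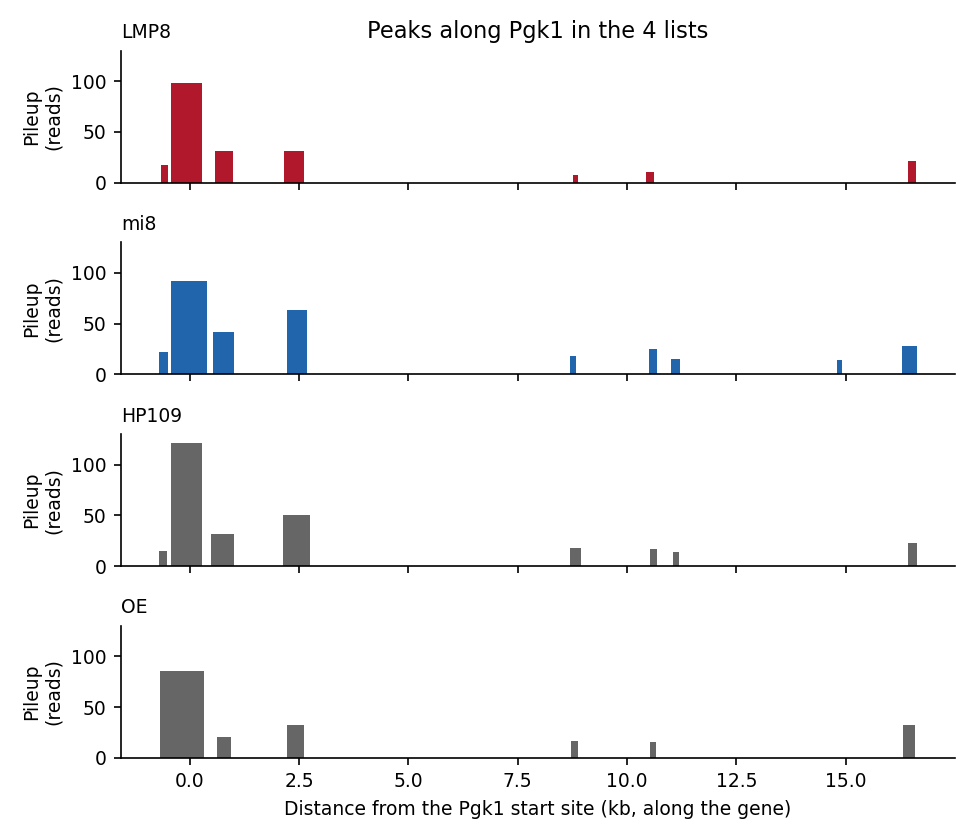
Peaks along Pgk1 by distance from its start site (kb, horizontal axis), with the summit pileup (reads) as bar height and the peak width as bar width, for LMP8, mi8, HP109 and OE from top to bottom. The start peak reaches 98, 92, 121 and 86 reads in this order, while the peak near 2.5 kb has 31 reads in LMP8 and 63 in mi8.

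Other regions moved further in rank, each with more reads in mi8. Of the 1000 regions highest in LMP8, those ranked lowest in mi8 included the end region of Slc25a35, a mitochondrial carrier (67 reads and rank 579 in LMP8, 69 reads and rank 15424 in mi8), and that of Rnh1, the ribonuclease inhibitor (65 in LMP8, 71 in mi8). In the reverse direction they included a region 37.0 kb from Rapgef5 (43 reads and rank 16225 in LMP8, 105 reads and rank 441 in mi8) and the end regions of Lmbrd2 (46 in LMP8, 107 in mi8) and Rad1, a DNA damage checkpoint clamp subunit (47 in LMP8, 102 in mi8). These regions were selected for their rank change, which is a description.

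Genes of dendritic cell identity were open in both controls. Of 28 listed genes, 26 had an end peak in both lists (92.9%, against 62.6% of all 21627 protein-coding genes). Other lists came as high, with 92% for macrophage markers, 95.2% for antigen presentation and 95.5% for ubiquitous promoters, while stroma markers had 46.7%. Itgax, which encodes the sorted CD11c, had 53 reads in LMP8 (Poisson interval 39.7 to 69.3), 83 in mi8 (66.1 to 103), 87 in HP109 and 73 in OE. Sirpa, the SIRP-alpha marker of conventional type 2 dendritic cells, had 65 in LMP8, 93 in mi8, 96 in HP109 and 87 in OE. LMP8 had the lowest raw count of the 4 at both genes, but the median shared region also had 20 reads in LMP8 and 32 in mi8. Divided by that median, Itgax had 2.65 in LMP8 and 2.59 in mi8, and Sirpa 3.25 in LMP8 and 2.91 in mi8.

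Transcription factors of the lineage were open in both controls. The raw counts below were lower in LMP8 than in mi8, as in most shared regions, where LMP8 reached the mi8 pileup in 5.38%. Divided by the median shared region of each list, Irf8, Batf3 and Zbtb46 were higher in LMP8, and Spi1 and Irf4 were higher in mi8. Spi1, which encodes PU.1, had 58 reads in LMP8, 103 in mi8, 91 in HP109 and 65 in OE. Irf4 had 53 in LMP8, 92 in mi8, 94 in HP109 and 94 in OE. Irf8 had 42 in LMP8, 63 in mi8, 62 in HP109 and 57 in OE. Batf3, needed for type 1 dendritic cells, had 46 in LMP8, 57 in mi8, 70 in HP109 and 41 in OE. Zbtb46, a factor restricted to conventional dendritic cells, was weak, at 24 in LMP8, 32 in mi8, 30 in HP109 and 18 in OE.

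Antigen presentation and T cell stimulation genes were open as well. Cd74, the invariant chain of MHC class II, had 48 reads in LMP8 and 70 in mi8. H2-Ab1, an MHC class II chain, had 37 in LMP8 and 52 in mi8. Ciita, the class II transactivator, had the lowest LMP8 value among the 26 genes with a shared end region, with 19 in LMP8, 31 in mi8, 32 in HP109 and no end peak in OE. The costimulatory ligand Cd86 had 46 in LMP8 and 56 in mi8, and Cd80 had 60 in LMP8 and 87 in mi8. Ccl17, a chemokine of activated dendritic cells, had 25 in LMP8 and 49 in mi8. These reads lay at chr8:94811693-94812241, at the end of its span with the higher coordinate. At an annotated start site Ccl17 had a −log10 q of 18.6 in LMP8 and 35.8 in mi8. Ccr7, the receptor of migrating mature cells, had no end peak in LMP8 and one of −log10 q 4.76 in mi8, and Cd209a, a C-type lectin, had none in either control and one of 2.38 in HP109.

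To set the lists side by side, each pileup was divided by that of the median shared region of its own list, 20 reads in LMP8 and 32 in mi8. On this scale 19 of the 26 genes were higher in LMP8 (73.1%), against 60.7% of all 13559 genes with a shared end region. The lean was not particular to dendritic cell identity genes. Macrophage markers had 73.9% and myeloid transcription factors 71.9%, while ubiquitous promoters had 38.1%. The log2 ratio, LMP8 over mi8, had a median of 0.09 over the 26 genes and 0.06 over all. Cd86 (2.30 in LMP8, 1.75 in mi8) and Clec10a, a lectin of type 2 cells (2.40 and 1.84), had the highest log2 ratios, 0.39 and 0.38. Ccl17 (1.25 in LMP8, 1.53 in mi8) and H2-Eb1 (1.55 and 1.78) had the lowest, −0.29 and −0.20. The intervals of Cd86 (33.7 to 61.4 reads in LMP8, 42.3 to 72.7 in mi8) and Ccl17 (16.2 to 36.9 in LMP8, 36.2 to 64.8 in mi8) cover counting error alone.

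**Figure D4:**
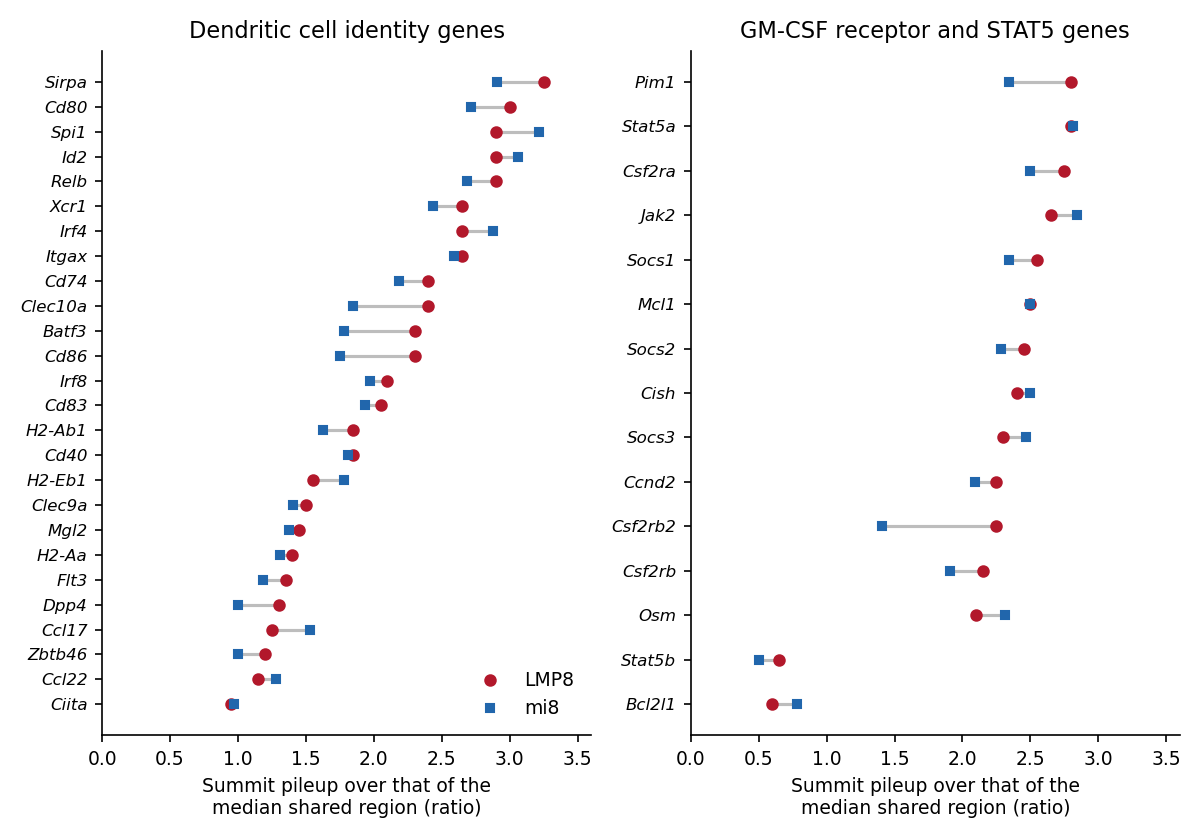
Summit pileup of the strongest shared gene-end region, divided by the pileup of the median shared region of the same list (ratio, horizontal axis), for 26 dendritic cell identity genes and 15 GM-CSF receptor and STAT5 genes, in LMP8 (red circles) and mi8 (blue squares). Grey lines join the lists; Csf2rb2 (2.25 in LMP8, 1.41 in mi8) has the longest line.

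The GM-CSF pathway had an end peak in both controls at all 15 listed genes, beside 62.6% of all protein-coding genes. This was not particular to the pathway. Myeloid transcription factors, NF-kB and Toll-like receptors, interferon-stimulated genes, and PRC1.6 and Pcgf paralogs also reached 100%, and ubiquitous promoters 95.5%. The GM-CSF receptor chains Csf2ra and Csf2rb had 55 and 43 reads in LMP8 and 80 and 61 in mi8. The kinase gene Jak2 had 53 in LMP8, 91 in mi8, 78 in HP109 and 83 in OE. Stat5a had 56 in LMP8, 90 in mi8, 87 in HP109 and 87 in OE. The feedback inhibitor Cish, a direct STAT5 target, had 48 in LMP8, 80 in mi8, 86 in HP109 and 87 in OE. Socs1, Socs2 and Socs3, further feedback inhibitors, had 51, 49 and 46 in LMP8 and 75, 73 and 79 in mi8. Stat5b and Bcl2l1, an anti-apoptotic gene, were weak at the ends of their spans, with 13 and 12 in LMP8 and 16 and 25 in mi8, but had a −log10 q of 26.9 and 61.9 in LMP8 and 47.3 and 94.0 in mi8 at a start site inside the span.

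Csf2rb2, the gene of the second mouse beta chain, differed from the rest of the pathway. It had 45 reads in LMP8 (Poisson interval 32.8 to 60.2), 45 in mi8 (32.8 to 60.2), 42 in HP109 and 41 in OE. The raw counts of the controls were equal at this gene, unlike those of the median shared region, 20 in LMP8 and 32 in mi8. On the scale of that region Csf2rb2 had 2.25 in LMP8 and 1.41 in mi8. Its log2 ratio of 0.68 was the highest of the 15 genes. Csf2rb2 is a near copy of Csf2rb, and how reads that fit both were placed is not given in the sources used here. Across the 15 genes 8 were higher in LMP8 on this scale, 6 in mi8 and Mcl1, an anti-apoptotic gene, was equal.

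Markers of other cell types are read beside the 62.6% of all genes with an end peak in both controls. Macrophage markers had an end peak in both controls at 23 of 25 genes, all but Cd163 and Timd4, receptors of resident macrophages; Msr1, a scavenger receptor, had a −log10 q of 71.8 in LMP8 and 83.5 in mi8. Granulocyte and mast cell markers had one at 12 of 23, lymphoid and plasmacytoid markers at 10 of 24, erythroid and megakaryocyte markers at 8 of 17 and stroma markers at 7 of 15. Some defining genes had no end peak in either control. Among them were Cd3e and Cd3g of T cells, Pax5 and Cd79b of B cells, and Rag1 and Rag2. Also without one were Ly6g, Elane and Mpo of neutrophils, Gata1 of erythroid cells, and Col1a2, Col3a1 and Dcn of fibroblasts. Other genes of the same cell types had an end peak in both controls. The −log10 q was 47.4 in LMP8 and 70.2 in mi8 at Cd3d of T cells. In the same order it was 46.1 and 57.1 at Cd79a of B cells, and 24.1 and 59.5 at S100a8 of neutrophils. It was 35.6 and 58.1 at Klf1 of erythroid cells, and 5.10 and 11.6 at Col1a1 of fibroblasts. Open end peaks at the remaining markers included Mmp8, a neutrophil collagenase (61.2 in LMP8, 115 in mi8), and Il7r, a lymphoid cytokine receptor (64.8 in LMP8, 88.1 in mi8).

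Gene ends open in 1 control alone were few. Among 21627 genes, 13536 had an end peak in both controls (62.6%) and 7339 in neither (33.9%). An end peak without a counterpart was found for 98 genes in LMP8 alone (0.453%) and for 597 in mi8 alone (2.76%). With a −log10 q of at least 5 asked of the counted list the counts were 21 in LMP8 alone and 320 in mi8 alone, and at start sites they were 67 and 387. Of the 98 genes, 48 were open at an end in HP109 and 12 in OE, and of the 597 genes, 340 were open in HP109 and 100 in OE. Neither Pcgf6 vector had one at 50 of the 98 and at 237 of the 597.

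In LMP8 alone the strongest were weak peaks. A4gnt, a glycosyltransferase of gastric mucin, had a −log10 q of 10.6 (chr9:99591301-99591411, 19 reads), with 5.08 in HP109 and none in OE. Fam83h, a gene of enamel formation, had 10.1 (chr15:76015252-76015359, 20 reads), with 3.92 in HP109. Gm12569 had 8.23. Macroh2a2, a histone variant of the macroH2A type, and Gm2137 shared the peak at chr10:61783920-61784042, with 7.65 and 14 reads, and neither HP109 nor OE had a peak there. Hopx, a homeodomain-only cofactor, also had 7.65 (chr5:77115147-77115261), in LMP8 and no other list. Fem1al, Antxr1, Smoc1 and Tm4sf5 followed with 6.53 to 6.90. Of these 10 genes, Macroh2a2, Hopx and Fem1al had the peak within 1000 bp of an annotated start site. For Fam83h, Antxr1 and Smoc1 no start site was at hand.

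In mi8 alone the peaks were stronger. Commd1, an endosomal sorting protein that also restrains NF-kB, had a −log10 q of 25.8 at the far end of the gene (chr11:22900156-22900309, 32 reads), with 9.80 in HP109. The annotated promoters of Commd1 were shared, with 29.4 in LMP8 and 66.8 in mi8 at one and 12.3 and 14.4 at the other. Cd200r2, of the CD200 receptor family of myeloid cells, had 25.6 at its start (chr16:44866955-44867177, 33 reads), with 9.69 in HP109 and none in OE. Tenm4, a teneurin adhesion protein, had 24.6 at its start (chr7:96170892-96171877, 31 reads), with 6.63 in HP109 and 6.26 in OE. Rtl9, Idi2, Tmem269, Fev, Cntf, 1700016K19Rik and Sytl4 had 17.7 to 20.7, and each had an end peak in HP109 too. Tmem269 had 18.8 in mi8, 21.7 in HP109 and 17.9 in OE.

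Among 364 different genes of the 18 lists, 0 had an end peak in LMP8 alone and 16 had one in mi8 alone, beside 0.453% and 2.76% of all genes. By role these were the dendritic cell gene Ccr7 (4.76), the plasmacytoid receptor Siglech (16.6) and the lymphoid marker Cd7 (9.97), Marchf1, which removes MHC class II from the surface (7.499), Cd70, a ligand that costimulates T cells (6.61), the T cell chemokine Ccl5 (11.3), the neutrophil granule gene Ngp (10.7), the platelet integrin Itga2b (6.61), Pdgfra (5.99) and Cdh5 (2.64) of stroma and vessels, and the glycolytic Ldha (5.76). The others were the 14-3-3 gene Ywhaz (3.69) and the developmental Polycomb targets Pax3 (4.92), Lhx5 (3.83), Wt1 (5.58) and Dlx5 (1.96). HP109 had an end peak at Siglech, Cd7, Marchf1, Cd70, Ngp, Itga2b, Pdgfra, Wt1, Ywhaz and Ldha, and at none of the other 6. An end peak in mi8 alone does not make the promoter unshared: at annotated start sites inside the span Marchf1 had 46.4 in LMP8 and 80.4 in mi8, and Ldha had 47.7 in LMP8 and 84.2 in mi8.

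Ranked over all positions, unshared peaks reached higher values than at gene ends. The strongest LMP8 peak absent from mi8 lay in Rars2, a mitochondrial arginyl-tRNA synthetase (chr4:34659110-34659297, −log10 q 17.0, 9.69 in HP109). Others lay at or near Adipor1, Slc39a6, Olfr1413, Dapk1, Prkd3, Zdhhc13, Mxd1 and Man2a2, with 12.0 to 13.6. HP109 had a peak at each of these intervals, and OE had one at Adipor1 (4.60) and Slc39a6 (10.9). The strongest mi8 peaks absent from LMP8 lay in Mctp1 (chr13:76587218-76587380, 39.4, 27.4 in HP109), Mettl15 (35.9), Specc1l (33.3), Bcl2l14, a BCL2 family member (33.0), and Cd36, the scavenger receptor for oxidised lipids (chr5:17848795-17848971, 32.1, 16.4 in HP109 and 5.06 in OE). Those at Cchcr1, Bri3bp, Lrrc6, Igf2r and a site on chromosome 14 with no gene within 100 kb had 30.6 to 32.1. At the chromosome 14 site, Bri3bp and Lrrc6, OE had a peak and HP109 had none. This was the rarer state. Of all mi8 peaks absent from LMP8, 3.78% had a peak in OE and not HP109, and 37.3% had one in HP109 and not OE.

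Some genes held many unshared peaks in their span. They were ranked by count, which favours spans with many peaks. Over all peaks, 5.97% of LMP8 peaks and 24.9% of mi8 peaks were absent from the other control. Osbpl8, an oxysterol-binding lipid transporter, had 17 of 68 LMP8 peaks absent from mi8 and 36 of 88 mi8 peaks absent from LMP8. Rap1b, a small GTPase of adhesion, had 12 of 29 in LMP8 and 8 of 26 in mi8, in a span of 31.4 kb with 27 peaks in HP109 and 11 in OE. Cd44, the hyaluronan receptor, had 12 of 61 in LMP8 and 34 of 80 in mi8. Cdh23 had 14 of 69 LMP8 peaks absent from mi8, and Tbxas1, the thromboxane synthase, had 11 of 76. On the mi8 side Atp2b1, a calcium pump, had 52 of 104 mi8 peaks absent from LMP8, with 9 of 66 in LMP8. Zeb2, a repressor needed for monocyte and dendritic cell identity, had 52 of 115 in mi8 and 7 of 71 in LMP8. Pde4d had 46 of 158 mi8 peaks absent from LMP8, and Foxp1 had 35 of 118.

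The gene lists differed in their shares of unshared regions. Near all genes 117891 of 164977 regions were shared, with 4.8% in LMP8 alone and 23.7% in mi8 alone. The mi8-only regions outnumbered the LMP8-only regions in each of the 18 lists, so no list turned the overall direction. Dendritic cell identity genes had 29 of 435 regions in LMP8 alone (6.67%) and 93 in mi8 alone (21.4%). GM-CSF receptor and STAT5 genes had 15 of 252 in LMP8 alone (5.95%) and 41 in mi8 alone (16.3%). Myeloid transcription factors had 52 of 1024 in LMP8 alone (5.08%) and 199 in mi8 alone (19.4%). Among them Etv6 had 2 and 34 beside 78 shared regions, and Runx1 had 7 and 17 beside 68.

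Macrophage markers had the largest share in LMP8 alone, 42 of 449 regions (9.35%), beside 102 in mi8 alone (22.7%). The mannose receptor gene Mrc1 had 13 of these 42, with 3 in mi8 alone and 31 shared. Cd36 also had 13, with 18 in mi8 alone and 59 shared. Mrc1 and Cd36 supplied most of the count in LMP8 alone. Antigen presentation genes had 20 of 245 in LMP8 alone (8.16%) and 55 in mi8 alone (22.4%). Of these, Marchf1 had 11 and 22, beside 33 shared. Lymphoid and plasmacytoid markers had 4 of 169 in LMP8 alone (2.37%) and 53 in mi8 alone (31.4%). Tcf4, the E protein that directs plasmacytoid dendritic cells, had 1 and 18 of these, beside 42 shared. Developmental Polycomb targets had 8 of 116 in LMP8 alone (6.90%) and 44 in mi8 alone (37.9%). Lhx2 had 1 and 6 of these, beside 10 shared. The regions of this list were weak. Their median −log10 q was 6.29 in LMP8 and 8.34 in mi8, against 11.7 and 14.4 near all genes. The part of peak strength in the share of this list was not tested.

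**Figure D5:**
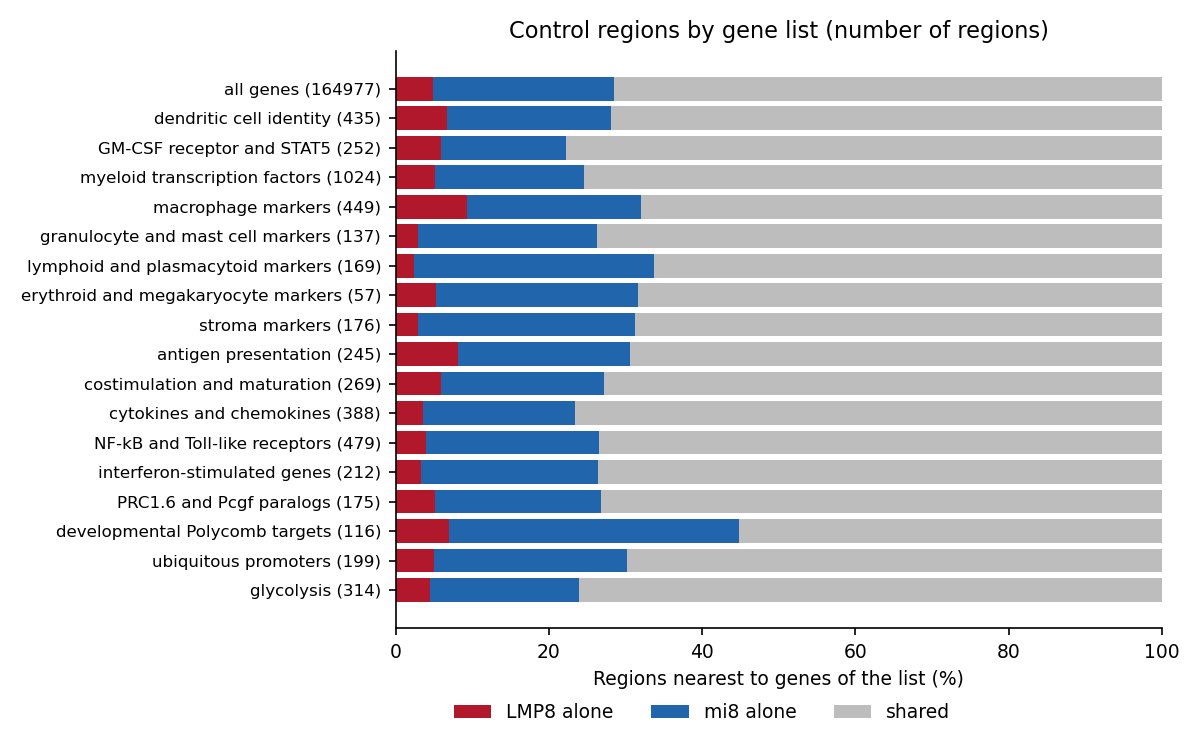
Share of the regions nearest to the genes of each list (percent, horizontal axis) in LMP8 alone (red), mi8 alone (blue) or shared (grey), with the number of regions in brackets; the list of vector-related genes, with 12 regions, is left out. Macrophage markers have the longest red bar (9.35%) and developmental Polycomb targets the longest blue bar (37.9%), beside 4.8% and 23.7% near all genes.

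The list of vector-related genes had 0 of 12 regions in LMP8 alone and 4 in mi8 alone. Of the other lists, the shares in LMP8 alone were 2.92% for granulocyte and mast cell markers, 5.26% for erythroid and megakaryocyte markers, 2.84% for stroma markers, 5.95% for costimulation and maturation, 3.61% for cytokines and chemokines, 3.97% for NF-kB and Toll-like receptors, 3.30% for interferon-stimulated genes, 5.14% for PRC1.6 and Pcgf paralogs, 5.03% for ubiquitous promoters and 4.46% for glycolysis. In mi8 alone the shares of these 10 lists ran between 19.4% for glycolysis and 28.4% for stroma markers. Kit, the stem cell factor receptor of mast cells, had 1 region in LMP8 alone, 13 in mi8 alone and 13 shared. In the same order Vegfa, the vascular growth factor, had 0, 12 and 11. Tlr4, the lipopolysaccharide receptor, had 5, 16 and 38, and Nfkbiz, an inducible NF-kB cofactor, had 1, 16 and 22. Near all genes 4.8% of regions were in LMP8 alone and 23.7% in mi8 alone.

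Promoters differed in base composition between the states. Of 21044 RefSeq promoter windows of 17273 genes, a peak of both controls covered 11824 (56.2%), of LMP8 alone 116 (0.551%), of mi8 alone 461 (2.19%) and of neither 8643 (41.1%). Median CpG counts in the 300 bases were 16 for LMP8 alone, 11 for mi8 alone, 21 for both and 4 for neither, against 13 over all windows. The PU.1 letters stood in 8.62% of promoters in LMP8 alone, 16.9% in mi8 alone and 13.6% in both, against 13.3% of all windows. The ETS letters stood in 5.17% in LMP8 alone, 3.69% in mi8 alone and 18.7% in both, against 11.7% of all. The GC box stood in 58.6% in LMP8 alone, 45.3% in mi8 alone and 66.4% in both, against 46.7% of all. AP-1 letters stood in 6.90%, 9.76% and 4.90% in the same order, against 7.04% of all, and the TATA box in 13.8%, 12.8% and 6.45%, against 12.7%. NF-Y letters stood in 27.6% in LMP8 alone, 32.1% in mi8 alone and 38.2% in both, against 38.5% of all. C/EBP letters stood in 10.3%, IRF letters in 8.09%, the cyclic AMP response element in 2.26% and NRF1 letters in 3.54% of all windows. Shares in LMP8 alone rest on few promoters, and genes with several start sites count once per site.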

How the data were processed

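Open chromatin was measured by ATAC-seq in sorted mouse dendritic cells, 2 libraries for each of 4 vectors and 1 input. Per the submitters' processing notes, BWA, Picard, MACS2 and the mm10 build were used; no versions or thresholds came with these names. The names of the lists mention downsampling, to an extent not stated there. Each list deposited by the authors holds, per peak, a score, the fold over background, and −log10 p and −log10 q, for both libraries of a vector together. The score was 10 times −log10 q, and fold and significance were used as the authors' own values. Chromosomes 1 to 19 and X were kept, and no interval occurred more than once in a list. Peaks were overlapped, assigned to the nearest of 21627 RefSeq protein-coding genes (GRCm38.p6, the assembly of mm10) within 100 kb, and counted at gene ends within 1000 bp, since start sites were at hand for 17273 genes. Python 3.11.15, numpy 2.4.6, pandas 2.3.3 and scipy 1.17.1 were used, and the scripts were tested on simulated data. With 1 list per vector there was no test. Genes were named where a listed gene had an end peak in 1 control alone, as the 10 strongest end peaks and the 10 strongest intervals in each direction, as the 10 strongest shared end regions and the 10 spans with most shared regions, as the 5 spans in each direction with most unshared peaks, and as members of the dendritic cell, GM-CSF and vector lists. One of the intervals that this rule names is not reported here. Of 391 list entries, 390 were protein-coding genes, and Mir30a was placed by its RefSeq miRNA entry. Members and lists were chosen with earlier results of these data known, and examples from other lists, rank changes and wide, dense or distal regions were chosen after their values were seen. Alternatives changed the q threshold, the overlap, the gene window, the gene distance, the depth and the number of peaks.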

Additional observations from a re-analysis of the deposited data

Results flagged for a closer look

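Peaks on chromosomes Y and M lay outside the comparison and are given as values. Chromosome Y held 19 peaks in LMP8 and 30 in mi8. The mitochondrial chromosome held 15 peaks in LMP8 and 4 in mi8.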

How the results depend on the processing

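A larger share of mi8 peaks than of LMP8 peaks was absent from the other control under each alternative tried. With −log10 q of at least 5 in both lists the shares were 4.45% for LMP8 and 25.3% for mi8, with a Jaccard index of 0.694, and with at least 10 they were 2.24%, 29.0% and 0.681. At 2 the mi8 share was 24.5% and the index 0.689. With 5 asked of the counted list alone, the shares were 1.86% and 15.2%, and 21 genes in LMP8 alone and 320 in mi8 alone kept an end peak. Asking for overlap of at least 50% of the peak gave 7.48% and 29.3%, and allowing 250 bp gave 4.28% and 21.3%. With equal numbers of peaks the shares came closest, 11.8% and 14.99%, with an index of 0.712. Scaling mi8 to the LMP8 depth gave 6.17%, 24.3% and 0.690, and autosomes alone gave an index of 0.688. Stricter thresholds and equal numbers leave fewer peaks by construction; for the other shifts the cause was not tested. Start sites, chosen after seeing the data and covering 17273 genes, gave 387 genes in mi8 alone. All 18 gene lists had more regions in mi8 alone than in LMP8 alone, also at 25 kb and at scaled depth. No paired analysis was possible because each vector has 1 list made from both libraries, and for the same reason no replicate could be left out. Weak peaks limit what can be said of absence, since a peak just under a list's threshold counts as absent.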
